A study of Mus musculus with 10 samples.

Results

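The genes described here encode T-lineage transcription factors, the DNA-binding proteins that commit thymocytes to the T cell fate and then steer them to the CD4 or CD8 branch. They were chosen by name as Tcf7, Lef1, Gata3, Bcl11b, Runx1, Runx3, Zbtb7b, Tox and Satb1. Of these 9 genes, 8 had a probe set that named them alone, out of 19937 genes so named on the array, and Tcf7 was not analysed here. All 8 had 1 probe set each, so no choice between probe sets was needed. All 8 also passed the filter on dim signals, with Zbtb7b above it by only 0.016 on the log2 scale.

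Tumour RNA came from mice that carry an NPM-ALK transgene on a C57BL/6 background and develop spontaneous T cell lymphoma at 4 to 5 months of age. NPM-ALK is a fusion kinase found in anaplastic large cell lymphoma, and WASP, encoded by Was, drives branched actin assembly in blood cells. In 5 mice the tumours lacked WASP (WASP -/-, homozygous females or hemizygous males per the design text), and in 5 others WASP was intact (WT). "WT" thus refers to Was alone, since both groups carry NPM-ALK. The promoter that drives the transgene is not given in the sources used here. Each tumour was a primary mediastinal lymphoma hybridised to 1 microarray, and the values are RMA intensities, given here as log2 levels. Levels of different genes come from different probes and are not set against each other.

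During thymic development, Notch signals induce the HMG box factor TCF-1 and the zinc finger factor GATA3, which switch on BCL11B, and BCL11B closes off the alternative fates. LEF1 shares the DNA-binding domain type and much of the work of TCF-1. RUNX1 and RUNX3 bind DNA together with CBFβ and silence or maintain Cd4 and Cd8, while ThPOK, encoded by Zbtb7b, drives the CD4 helper fate and is opposed by RUNX3. TOX is needed for the CD4 lineage, and SATB1 folds chromatin around T cell genes.

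Was checked the labels, since it averaged 8.08 ± 0.13 in WASP -/- lymphomas and 9.22 ± 0.10 in WT lymphomas (log2 level, SD, n = 5 each; limma difference -1.14, adjusted p = 0.00088). Median intensity per array lay between 116.7 and 122.7, and 5 arrays per genotype set the limit of precision. Xist, transcribed in female cells, was on the high side of its midpoint on 0 of 5 WASP -/- arrays and on 4 of 5 WT arrays, so sex and genotype went together except on 1 WT array. The 6 T cell markers with a probe set summed to intensities of 12211 to 15468 in WASP -/- lymphomas and 12570 to 15463 in WT lymphomas. Over all 10 arrays Cd3e lay at 12.06 to 12.59, Thy1 at 11.86 to 12.31 and Cd5 at 6.57 to 7.38, while Cd3g, at 6.29 to 12.23, Cd3d, at 5.26 to 10.08, and Cd2, at 6.10 to 11.52, varied widely. The mean of the 6 centred markers was lowest on WT arrays 4 and 5, at -0.77 and -0.57, and 0.01 to 0.28 on the other 8. The 5 thymic epithelial markers summed to 815 to 1562 in WASP -/- lymphomas and 470 to 917 in WT lymphomas, with Krt8 1.06 and Krt5 1.31 log2 units higher in WASP -/- (exact two-sided permutation p = 0.0238 and 0.0476, unadjusted). The 4 fibroblast markers summed to 1072 to 2641 in WASP -/- lymphomas and 1399 to 4436 in WT lymphomas, with Col3a1 at -0.57 (exact two-sided permutation p = 0.0873, unadjusted). The 3 endothelial markers summed to 965 to 2087 in WASP -/- lymphomas and 1138 to 1749 in WT lymphomas. Of them Kdr was at -0.28 (exact two-sided permutation p = 0.0238, unadjusted), Cdh5 at -0.16 and Pecam1 at -0.04. The 5 macrophage markers summed to 3268 to 5988 in WASP -/- lymphomas and 3351 to 5205 in WT lymphomas. Krt8, Krt5, Col3a1 and Kdr each had a limma adjusted p of 0.999. The part of these cells in the genotype differences of the factors was not tested. Of 4 B cell markers with a probe set, 3 (Ms4a1, Cd79a and Pax5) were too dim to be tested, as were all 4 NK cell markers.

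The arrays also split by Cd2, the T cell adhesion receptor. Cd2 was at 11.52 on WASP -/- array 1 and at 11.18 and 11.30 on WT arrays 4 and 5, and between 6.10 and 6.90 on the other 7. The 3 arrays at 9 or more are called Cd2-high and the other 7, 4 WASP -/- and 3 WT, Cd2-low. They are a split of the arrays by a measured gene and not groups of the study, so their values are described without a test. A split between such sets is common in these data. Over 12670 genes tested, the ranges of the 2 sets did not overlap for 30.5% of genes, with 14.4% higher and 16.1% lower on Cd2-high arrays.

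Set against that background, the T-lineage factors as a group did not stand out. The ranges were apart for 2 of 8, Runx3 and Lef1, both lower on Cd2-high arrays, a share of 25% against 30.5% of all genes. The median difference over the 8 genes, Cd2-high minus Cd2-low, was 0.11, against -0.02 over all genes tested. In size, however, Runx3 lay well beyond the other 7. Ranges that were apart together with medians at least 1 log2 unit apart were found for 6.61% of genes, and among the 8 factors for Runx3 alone.

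**Figure D1:**
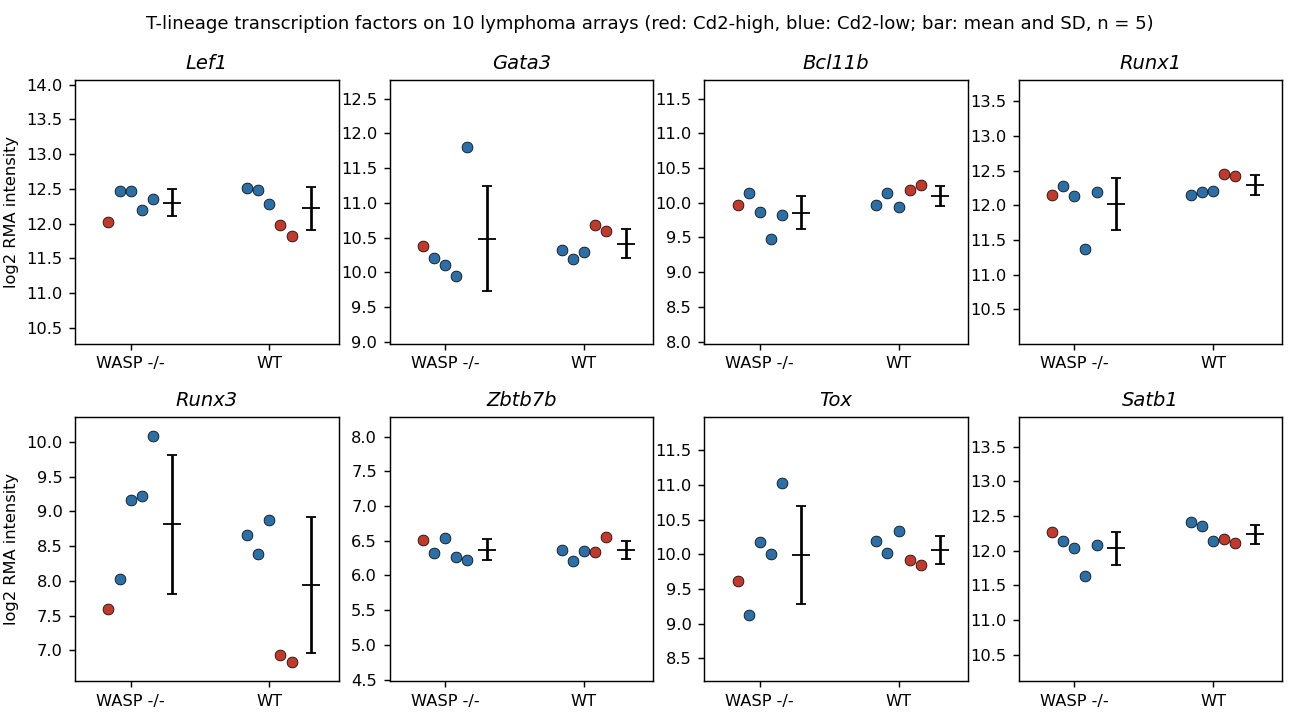
Log2 RMA intensity of the 8 factors, 1 point per array, with WASP -/- arrays left and WT arrays right in each panel and each panel spanning the same number of log2 units. Red points are Cd2-high and blue points Cd2-low arrays, and bars give the mean and SD of each genotype (n = 5). Runx3 spread over 3.25 log2 units and its 3 red points are the lowest, while Zbtb7b spread over 0.36.

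Runx3, the factor that silences Cd4 and upholds the CD8 and cytotoxic programme, varied most. Its level was 7.60, 8.02, 9.16, 9.22 and 10.08 on WASP -/- arrays 1 to 5, against 8.66, 8.39, 8.88, 6.93 and 6.84 on WT arrays 1 to 5. The genotypes overlapped, and the 3 lowest arrays were the Cd2-high ones of both genotypes. Those 3 ranged from 6.84 to 7.60, the 7 Cd2-low arrays from 8.02 to 10.08, with a gap of 0.43 between the sets. The set medians were 6.93 and 8.88, a difference of -1.94, so that the Cd2-low median was 3.85 times the Cd2-high one. The split over all arrays fixes the same order inside each genotype. Runx3 was at 7.60 against 8.02 to 10.08 in WASP -/- lymphomas. In WT lymphomas it was at 6.84 to 6.93 against 8.39 to 8.88. The SD of Runx3 over the 10 arrays, 1.04, was at the 97.9th percentile of all genes tested. In bulk tumour RNA, fewer cells that express a gene and less RNA per cell cannot be told apart.

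Runx3 is read from 2 promoters, and RefSeq (GRCm38.p6) places 2 starts for it on mouse chromosome 4, plus strand. The 250 bases before each start are shown because Runx3 is the factor with the widest swing and RUNX proteins are known to act on RUNX genes. Capitals mark the RUNX core TGTGGT, or ACCACA on the opposite strand.
Runx3 distal start, chr4:135120395-135120644: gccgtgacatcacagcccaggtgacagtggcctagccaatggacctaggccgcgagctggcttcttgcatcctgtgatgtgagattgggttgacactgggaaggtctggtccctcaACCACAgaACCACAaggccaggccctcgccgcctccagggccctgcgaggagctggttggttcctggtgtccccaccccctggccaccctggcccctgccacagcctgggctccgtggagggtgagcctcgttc
Runx3 proximal start, chr4:135152295-135152544: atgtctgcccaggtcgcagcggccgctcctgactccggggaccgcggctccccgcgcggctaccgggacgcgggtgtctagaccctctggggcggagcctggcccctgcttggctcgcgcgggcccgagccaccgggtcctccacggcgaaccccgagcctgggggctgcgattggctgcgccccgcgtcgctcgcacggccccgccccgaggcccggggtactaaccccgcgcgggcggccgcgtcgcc
The distal window holds 2 copies, which begin 134 and 126 bases before the start, and the proximal window holds none. Over 32851 promoter windows of the same length, 14.05% hold this motif on either strand. Of the 19 windows that RefSeq gives for 8 of the 9 named factors, 2 do, the other being one of Zbtb7b. These 8 include Tcf7, whose level was not analysed, and leave out Tox, which has no window here. The match describes the letters only. The single Runx3 probe set does not say which start was used.

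Runx1, the relative of Runx3 that is needed for early T cell development, showed no such swing. It was at 12.15, 12.27, 12.13, 11.36 and 12.19 on WASP -/- arrays 1 to 5, against 12.14, 12.19, 12.21, 12.45 and 12.43 on WT arrays 1 to 5. WT arrays 4 and 5 were the highest and WASP -/- array 4 stood 0.77 below the next array. On Cd2-high arrays Runx1 lay at 12.15 to 12.45 and on Cd2-low arrays at 11.36 to 12.27, so the sets overlapped. Cbfb, the shared partner of both, was at 10.51 to 10.65 on Cd2-high arrays and 10.17 to 10.46 on Cd2-low arrays, apart in the direction opposite to Runx3.

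Lef1, an HMG box factor that acts with β-catenin downstream of Wnt signals, was the other factor whose sets were apart, by much less. It was at 12.02, 12.46, 12.47, 12.20 and 12.36 on WASP -/- arrays 1 to 5, against 12.52, 12.49, 12.28, 11.98 and 11.83 on WT arrays 1 to 5. The 3 Cd2-high arrays, at 11.83 to 12.02, lay below the 7 Cd2-low arrays, at 12.20 to 12.52. The difference of medians was -0.48 and the gap between the sets 0.18. The difference was -0.39 in WASP -/- lymphomas alone and -0.59 in WT lymphomas alone, where the split over all arrays fixes the direction.

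RefSeq gives 4 starts for Lef1 on chromosome 3, plus strand. Only the window farthest downstream holds the TCF and LEF core CTTTGA, or TCAAAG on the opposite strand, and it is shown for that reason, with the core in capitals.
Lef1 farthest downstream start, chr3:131156044-131156293: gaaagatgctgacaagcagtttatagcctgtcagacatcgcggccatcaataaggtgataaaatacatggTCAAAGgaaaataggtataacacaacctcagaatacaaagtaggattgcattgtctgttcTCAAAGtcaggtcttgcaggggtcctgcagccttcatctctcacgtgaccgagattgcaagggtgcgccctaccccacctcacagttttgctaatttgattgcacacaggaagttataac
The copies begin 180 and 120 bases before this start. Among all windows 13.83% hold the motif, and 2 of the 19 windows of the named factors do, the other being that of Bcl11b. The GATA motif AGATAA, or TTATCT, was in 0 of the 19 windows, against 9.99% of all windows.

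The sets of the other HMG box gene, Tox, overlapped through 1 array. It was at 9.61, 9.13, 10.17, 10.003 and 11.02 on WASP -/- arrays 1 to 5, against 10.20, 10.02, 10.33, 9.92 and 9.85 on WT arrays 1 to 5. WASP -/- array 5 was highest and WASP -/- array 2 lowest, and both are Cd2-low. The Cd2-high range of 9.61 to 9.92 lay within the Cd2-low range of 9.13 to 11.02. Without WASP -/- array 2 the sets of Tox were apart, lower on Cd2-high arrays, as were those of 32.6% of all genes in either direction on the same 9 arrays. In WT lymphomas alone the 2 sets of Tox were apart, at 9.85 to 9.92 against 10.02 to 10.33.

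Gata3, required for T cell commitment and for the CD4 branch, was nearly flat except on 1 array. It was at 10.38, 10.20, 10.10, 9.94 and 11.80 on WASP -/- arrays 1 to 5, against 10.32, 10.19, 10.30, 10.68 and 10.59 on WT arrays 1 to 5. WASP -/- array 5 stood 1.86 above the lowest array, and without it the range over the other 9 was 0.74. The Cd2-high arrays, at 10.38 to 10.68, exceeded every Cd2-low array but that one, and without it the sets of Gata3 were apart, as were those of 32.5% of all genes on the same 9 arrays.

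Bcl11b, the factor that seals T cell commitment and is lost in some T cell leukaemias, was present at a narrow range of levels. It was at 9.97, 10.14, 9.87, 9.48 and 9.83 on WASP -/- arrays 1 to 5, against 9.96, 10.14, 9.94, 10.18 and 10.26 on WT arrays 1 to 5. The genotypes overlapped and so did the Cd2 sets, at 9.97 to 10.26 and 9.48 to 10.14. Satb1, the chromatin organiser, was at 12.26, 12.14, 12.04, 11.64 and 12.09 on WASP -/- arrays 1 to 5, against 12.41, 12.35, 12.15, 12.16 and 12.10 on WT arrays 1 to 5. Its Cd2-high range, 12.10 to 12.26, lay inside its Cd2-low range, 11.64 to 12.41, with medians 0.022 apart.

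Zbtb7b, which encodes ThPOK, was close to the filter on every array. It was at 6.51, 6.32, 6.54, 6.26 and 6.22 on WASP -/- arrays 1 to 5, against 6.37, 6.20, 6.36, 6.33 and 6.56 on WT arrays 1 to 5. The filter lay at 6.35, the 40th percentile of all probe set means, so these values do not show that the gene was expressed. Cd4 and Cd8a, which ThPOK and RUNX3 control, overlapped between the Cd2 sets. Cd4 was at 7.72 to 8.49 on Cd2-high arrays and 7.89 to 9.61 on Cd2-low arrays, and Cd8a at 9.0 to 10.42 and 6.38 to 9.52.

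**Figure D2:**
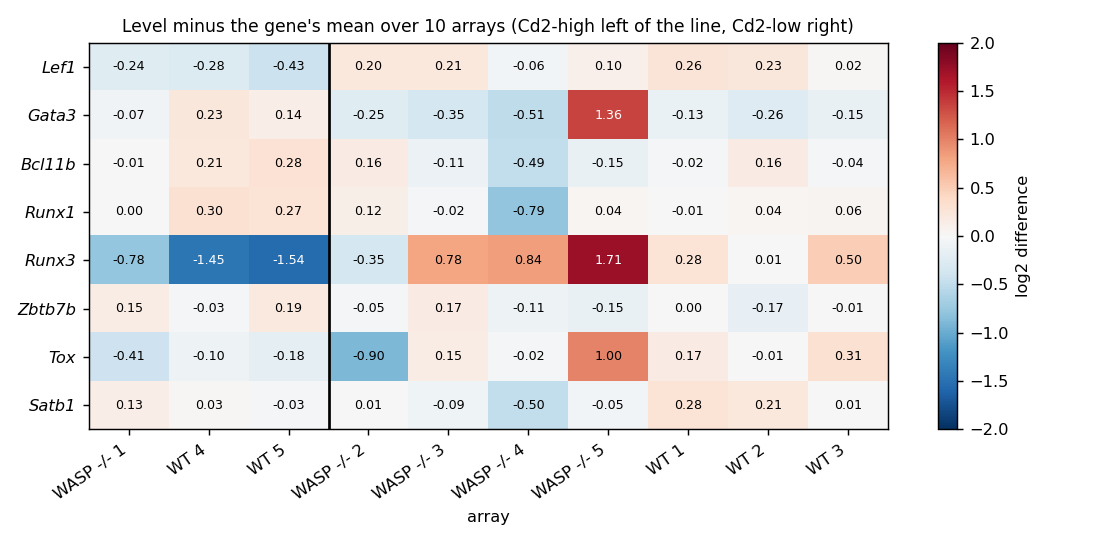
Level of each factor on each array minus its mean over the 10 arrays, in log2 units, with the 3 Cd2-high arrays left of the line and the 7 Cd2-low arrays right of it, WASP -/- before WT. Runx3 is lowest on the Cd2-high arrays, and Gata3, Runx3 and Tox are highest on WASP -/- array 5.

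Single tumours accounted for many of the extremes. WASP -/- array 5 had the highest level of Gata3, Runx3 and Tox, 3 of 8 factors, and was the highest array for 12.6% of all genes tested. WASP -/- array 4 had the lowest level of Gata3, Bcl11b, Runx1 and Satb1, 4 of 8, and was the lowest array for 14.1% of all genes. The SD over the 10 arrays was at the 89.6th percentile of all genes for Gata3 and at the 88.3th for Tox. It was between the 19.1th percentile for Zbtb7b and the 72.5th for Runx1 among Lef1, Bcl11b, Runx1, Zbtb7b and Satb1.

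How many of the 8 factors had Cd2 sets apart depended on the arrays. Without WASP -/- array 1 it was 4, with Bcl11b and Runx1 higher beside Lef1 and Runx3, and 38.6% of all genes were then apart. In WT lymphomas alone, 2 Cd2-high against 3 Cd2-low arrays, it was 6 of 8, against 61.6% of all genes. There Gata3, Bcl11b and Runx1 were higher and Lef1, Runx3 and Tox lower. In WASP -/- lymphomas alone, with 1 Cd2-high array, Lef1 and Runx3 were lower and Satb1 higher, 3 of 8 against 49.8% of all genes. The 12 choices of arrays were the 10 that leave out 1 array and the 2 single genotypes. Lef1 and Runx3 were lower on Cd2-high arrays under each. That was fixed in advance, since sets apart on all 10 arrays stay apart when arrays are left out.

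Loss of WASP was tested with limma over all 12670 genes, and 0 of the 8 factors passed an adjusted p of 0.05, where 0.00789% of all genes did. At an unadjusted p under 0.05, 0 of 8 factors passed, against 2.89% of all genes, and an unmoderated test with unequal variances also called 0. The difference of WASP -/- minus WT was positive for 4 factors and negative for 4, with a median of -0.03, against -0.004 over all genes. The ranges of the genotypes overlapped for all 8, and they were apart for 0.568% of all genes.

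Runx3 averaged 8.82 ± 0.999 in WASP -/- lymphomas and 7.94 ± 0.978 in WT lymphomas (SD, n = 5 each). The difference of 0.88 had a 95% interval from -0.35 to 2.11 (limma adjusted p = 0.999; exact two-sided permutation p = 0.198). It did not exceed the spread between tumours, and the interval holds both no difference and one of 2 log2 units. On the 7 Cd2-low arrays alone the difference was 0.48, with an interval from -0.43 to 1.39. Leaving out 1 array at a time, the difference ranged from 0.56 (without WASP -/- array 5) to 1.18 (without WASP -/- array 1). It was 0.55 with the Cd2 set as covariate, 0.32 with array weights and 0.10 with the Xist level as covariate.

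Bcl11b averaged 9.86 ± 0.24 in WASP -/- lymphomas and 10.10 ± 0.14 in WT lymphomas, a difference of -0.24 (interval -0.51 to 0.03; exact two-sided permutation p = 0.0794), and -0.15 without WASP -/- array 4. Runx1 differed by -0.26 (interval -0.63 to 0.11; exact p = 0.151) and by -0.10 without WASP -/- array 4. Satb1 differed by -0.20 (interval -0.47 to 0.07; exact p = 0.119) and by -0.10 without that array. With other single arrays left out the differences reached -0.31 for Bcl11b and -0.33 for Runx1 (each without WASP -/- array 2). For Satb1 the difference reached -0.26, without WASP -/- array 1. With the Xist level as covariate the differences were -0.09 for Bcl11b, -0.17 for Runx1 and -0.13 for Satb1. With array weights they were -0.14 for Bcl11b and -0.11 for Runx1, but -0.26 for Satb1. These 3 had the smallest exact p among the 8, none adjusted, where the design allows a p down to 0.00794.

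The intervals were narrower for Lef1 and Zbtb7b than for Gata3 and Tox. Lef1 differed by 0.08 (interval -0.26 to 0.42) and Zbtb7b by 0.007 (interval -0.20 to 0.22). Gata3 differed by 0.07 (interval -0.63 to 0.77), and by -0.26 without WASP -/- array 5. Tox differed by -0.08 (interval -0.73 to 0.58). All 8 had a limma adjusted p of 0.999.

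**Figure D3:**
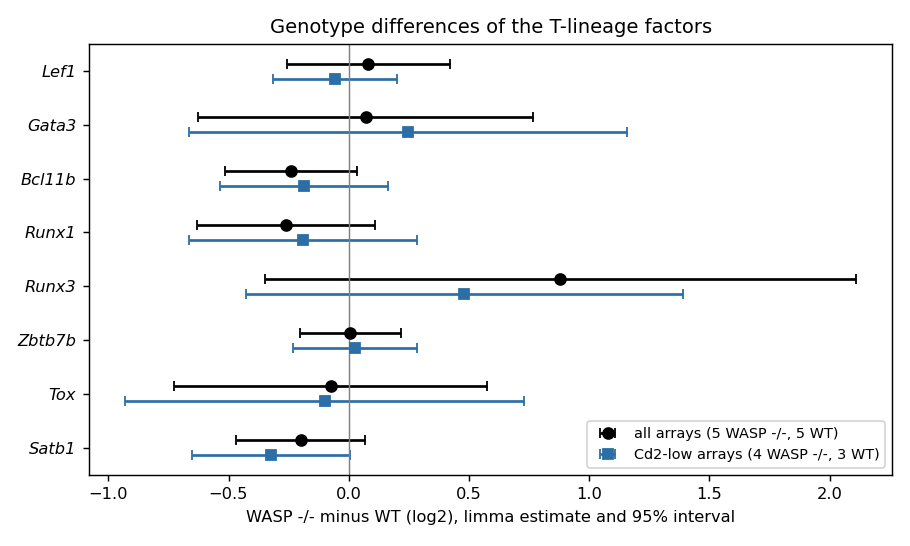
WASP -/- minus WT difference of each factor in log2 units (limma estimate with its 95% interval), over all 10 arrays (black circles) and over the Cd2-low arrays alone (blue squares, 4 WASP -/- and 3 WT). All intervals over 10 arrays include 0, and Runx3 has the widest, from -0.35 to 2.11.

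Leaving out the Cd2-high arrays, 0 of the 8 passed (0.0158% of all genes did). Satb1 was then the single factor whose genotypes did not overlap, at 11.64 to 12.14 on 4 WASP -/- arrays, against 12.15 to 12.41 on 3 WT arrays. Its difference of -0.32 had an interval from -0.65 to 0.003 (limma adjusted p = 0.999), and ranges of the genotypes were apart for 4.06% of all genes in these 7 arrays.

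Among relatives of the factors, 10 of 14 listed were tested, and 1 had Cd2 sets apart, a share of 10% against 30.5% of all genes. Tcf7l1, a TCF family member best known as a repressor, was at 6.88 to 7.22 on Cd2-high arrays and at 8.10 to 8.71 on Cd2-low arrays, lower as Lef1 was. Tox2 was at 6.95 to 7.38 and at 7.21 to 9.23, so its sets overlapped. By genotype 0 of 10 passed, against 0.00789% of all genes. The smallest p were those of Tox2 (a log2 difference of 0.65) and Gata6 (a log2 difference of -0.18).

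Of 19 partners and cofactors, 16 were tested, and Cd2 sets were apart for 8, 4 higher and 4 lower on Cd2-high arrays, with a median difference of 0.03 over the 16. That is 50% of them, against 30.5% of all genes (14.4% higher and 16.1% lower). Tle3, a Groucho corepressor that binds TCF, LEF and RUNX proteins, was at 10.53 to 10.74 on Cd2-high arrays and 11.10 to 11.40 on Cd2-low arrays. Tle5, a short family member that lacks most of the corepressor, went the other way, at 11.40 to 11.50 against 10.59 to 10.94. Hdac1 was at 11.23 to 11.63 against 11.74 to 12.06, and Hdac2, the other deacetylase of the NuRD complex that BCL11B recruits, at 10.65 to 10.79 against 10.36 to 10.51. Mta2, also of NuRD, was at 11.57 to 11.60 against 11.26 to 11.38. By genotype 0 of the 16 passed, against 0.00789% of all genes, with Tle5 at -0.24 and the GATA cofactor gene Zfpm1 at -0.10.

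Of 36 other T cell and lymphoid factors, 33 were tested, and 12 had Cd2 sets apart, 8 higher and 4 lower, with a median difference of 0.11. Their share of 36.4% was near the 30.5% of all genes. Ets2 was at 9.08 to 9.71 on Cd2-high arrays and 11.001 to 11.90 on Cd2-low arrays, while its relatives Elf1 (11.04 to 11.32 against 10.34 to 10.60) and Fli1 (10.32 to 10.63 against 9.13 to 9.97) went the other way. Ikzf2, which encodes Helios, was at 8.38 to 8.92 against 6.15 to 7.33. Nfil3, a factor for innate lymphocytes, was at 6.46 to 7.06 against 7.83 to 9.10, and Gfi1, a repressor in thymocytes, at 8.90 to 9.29 against 9.37 to 10.09. By genotype 0 of the 33 passed, against 0.00789% of all genes, with Ets1 at -0.28 and Nfatc1 at -0.15.

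Of 28 listed genes known to be activated by these factors, 23 were tested, with 5 higher and 3 lower on Cd2-high arrays and a median difference of 0.10. The share apart, 34.8%, was near the 30.5% of all genes, of which 14.4% were higher and 16.1% lower. The T cell receptor chain genes Cd3g and Cd3d were at 6.29 to 10.24 and 5.26 to 6.47 on Cd2-high arrays, against 11.45 to 12.23 and 8.96 to 10.08 on Cd2-low arrays. Ptcra, the pre-T cell receptor chain, was at 7.91 to 9.88 against 10.87 to 11.41. The costimulator Cd28 was at 11.06 to 11.24 against 6.14 to 8.09, Il7r, the interleukin 7 receptor, at 10.05 to 10.98 against 6.27 to 7.39, and Ly6d at 12.74 to 12.87 against 10.17 to 12.03. By genotype 0 of the 23 passed, against 0.00789% of all genes, with Dntt at -0.37 and Lat at -0.16.

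Early progenitor genes, which these factors silence, were tested for 10 of 15 listed, and the Cd2 sets were apart for 3, a share of 30% against 30.5% of all genes. The stem cell factor receptor Kit was at 8.46 to 9.32 on Cd2-high arrays and 7.09 to 8.18 on Cd2-low arrays. Mef2c was at 6.42 to 8.08 against 5.90 to 6.39, with 8.08 on WT array 4, and Gfi1b was at 7.18 to 7.24 against 7.44 to 8.26. Mef2c averaged 6.40 over the 10 arrays, near the filter at 6.35, and passed it only through WT array 4. By genotype 0 of the 10 passed, against 0.00789% of all genes. Spi1, which encodes the myeloid factor PU.1, was at 0.27 and Mef2c at -0.52.

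The NK and innate genes reported to rise when Bcl11b is deleted in mouse T cells were tested for 8 of 12, since the NK receptor genes Ncr1, Klrb1c, Klrd1 and Klrk1 were too dim. Cd2 sets were apart for 2 higher and 2 lower genes, 50% of the 8 against 30.5% of all genes. Nkg7, a cytotoxic granule protein, was at 8.29 to 9.97 on Cd2-high arrays and 5.96 to 7.19 on Cd2-low arrays, and the receptor gene Cd160 at 7.47 to 7.76 against 6.00 to 6.71. Il2rb, an interleukin 2 receptor chain, was at 5.67 to 6.09 against 6.13 to 6.92, and Nfil3 is given above. Il2rb averaged 6.43 over the 10 arrays, and its Cd2-high values all lay under the filter at 6.35. It passed the filter only through its Cd2-low arrays. By genotype 0 of the 8 passed, against 0.00789% of all genes. Fcer1g (0.41) was the single one with an unadjusted limma p under 0.05, where 2.89% of all genes had one. Il2rb was at 0.44.

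**Figure D4:**
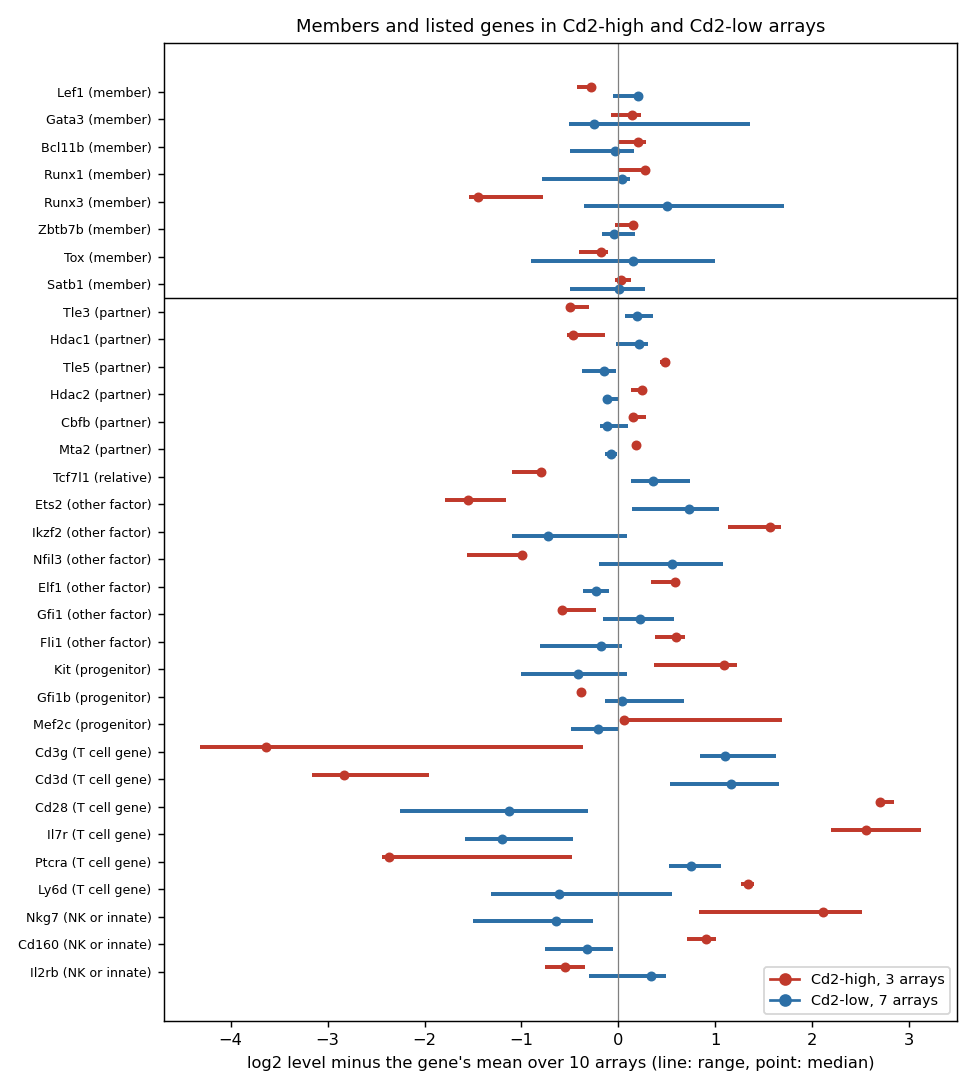
Range (line) and median (point) of the log2 level minus each gene's mean over the 10 arrays, for Cd2-high (red, 3 arrays) and Cd2-low (blue, 7 arrays). The 8 factors are above the horizontal line. Below it are, for each list, up to 6 of the genes whose sets did not overlap, those with the largest median differences. The medians of Runx3 differ by -1.94, with 0.43 between its ranges. Those of Cd3g, Cd3d, Cd28, Il7r and Ptcra, among others, differ by more.

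Among markers of other cells, Cd2 sets were apart for 50% of the fibroblast and 20% of the macrophage markers tested. They were apart for 0% of the endothelial, thymic epithelial and B cell markers tested, and for 30.5% of all genes. Of 4 fibroblast markers, Dcn and Pdgfra had sets apart, and the summed intensity of the 4 was 2641 to 4436 on Cd2-high arrays and 1072 to 2458 on Cd2-low arrays. Of 5 macrophage markers Adgre1 had sets apart, with sums of 4635 to 5205 and 3268 to 5988, and of 3 endothelial markers none did, with sums of 1530 to 1749 and 965 to 2087. The 4 NK cell markers summed to 65 to 72 and 61 to 81, the 4 B cell markers to 309 to 459 and 239 to 431, and the 5 thymic epithelial markers to 643 to 1221 and 470 to 1562. The part of these cells in the levels of Runx3 and Lef1 was not tested.

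Over the 10 arrays, Runx3 was the single factor with a range of at least 2 log2 units. The genes whose centred profile lay nearest to its own were Med24, a Mediator subunit, at a root mean square distance of 0.28 log2 units, Camsap3, a microtubule minus-end protein, at 0.30, and Msi1, an RNA-binding protein, at 0.33. They were chosen for a profile like that of Runx3, which largely fixes their order by Cd2. Their levels on Cd2-high and Cd2-low arrays were 9.62 to 9.72 against 10.46 to 11.97 for Med24, 5.90 to 6.12 against 7.53 to 9.46 for Camsap3 and 6.31 to 6.56 against 7.64 to 9.15 for Msi1. The Cd2-high values of Camsap3 all lay under the filter at 6.35, which it passed only through its Cd2-low arrays.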

How the data were processed

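The deposited table holds linear intensities for 34760 probe sets and 10 arrays. The authors computed the deposited intensities with RMA (background correction, quantile normalization, probe summary), per the submitters' processing notes; the software and its version are not named there. Groups came from the sample titles, which call the replicates biological. Log2 was taken of each value. Quantile normalization hides differences in total RNA.

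Names came from the platform annotation, which gave 1 symbol for 21640 probe sets, several for 1321 and none here for 11799; gene IDs of 21553 matched RefSeq (GRCm38.p6). Probe sets under the 40th percentile of means (log2 6.35) were left out, and the probe set of highest mean was kept per gene, which left 12670 genes. Genotypes were compared with limma 3.58.1 in R 4.3.3 (WASP -/- minus WT, no covariate, Benjamini-Hochberg over all genes) and, per factor, an exact two-sided permutation test over 252 assignments. The fit was tested on simulated data. Promoter windows came from RefSeq. Figures used matplotlib 3.10.9 in Python 3.11.15.

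The factors, the 6 gene lists and the tests were chosen with earlier results of these data known. The genes named are the factors, Was, Cd2, per list up to 6 genes with Cd2 sets apart by size and the 2 of smallest genotype p, and the 3 genes nearest to any factor that spans 2 log2 units. Marker genes and Xist were named as checks, and Cd4 and Cd8a after their values were seen. The alternatives tried concern the filter, the probe set, the scale, the test, covariates, the Cd2 threshold and single arrays, and the 2 single genotypes were added after seeing the data.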

Additional observations from a re-analysis of the deposited data

Results flagged for a closer look

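An array far from the other 4 of its genotype was found for 8 genes, by the gap to the nearest array as a share of the range (above 0.71, which chance gives in about 1 of 20 groups; 94 groups were examined). Genes named because their Cd2 sets were apart are among those examined, and that chance share does not apply to them. Among the T-lineage factors, Gata3 was at 11.80 on WASP -/- array 5, against 9.94 to 10.38 on the other 4, and Runx1 was at 11.36 on WASP -/- array 4, against 12.13 to 12.27.

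On WASP -/- array 1, the Cd2-high array of its genotype, Cd2 was at 11.52 against 6.11 to 6.90, Il7r at 10.98 against 6.32 to 7.39, Cd3d at 6.47 against 8.96 to 9.73 and Il2rb at 6.09 against 6.71 to 6.91. Nfatc1 was at 8.93 on WASP -/- array 5, against 9.11 to 9.18, and Mef2c at 8.08 on WT array 4, against 6.11 to 6.45.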

How the results depend on the processing

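None of the 207 values of the 8 factors by genotype, over up to 26 alternatives per factor, passed the threshold (limma or Welch adjusted p from 0.659 to 1), and 11 changed sign. The filter and probe set settings could not change a sign, since each factor has 1 probe set. Lef1 was at -0.071 with array weights, -0.0087 with the Cd2 set as covariate and -0.057 without the Cd2-high arrays. Leaving out 1 array at a time, Lef1 ranged from -0.015 to 0.157, Zbtb7b from -0.035 to 0.056, Tox from -0.334 to 0.139 and Gata3 from -0.259 to 0.207, and the count of factors called was 0 each time. Of the 175 differences between Cd2 sets, all moved by less than the SD over the Cd2-low arrays, and 4 changed sign. The filter, probe set and Cd2 threshold settings could not move them. Each factor has 1 probe set, and thresholds of 8 and 10 select the same arrays as 9. Satb1, at 0.022, was at -0.021 with arrays centred on their median, -0.0084 without WASP -/- array 1 and -0.21 in WT lymphomas alone, and Runx1, at 0.24, was at -0.0061 in WASP -/- lymphomas alone. The count of factors with Cd2 sets apart ranged from 2 to 4 without single arrays (4 without WASP -/- array 1) and was 6 in WT lymphomas alone. Leaving out arrays can only keep or raise this count. Zbtb7b gave no value with the filter at the 60th percentile.

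Was was the 1 gene of all that differed with genotype. The count was 2 with the Welch test (Slc38a7 besides) and 2 without the Cd2-high arrays (Ybx3 besides), and ranged from 1 to 4 without single arrays (2 without WASP -/- array 1, 4 without WT array 3). It was 0 with the Xist level as covariate, where Was had an adjusted p of 0.376, and 0 with the replicate block, where Was had 0.136. The labels give same-numbered samples a number in common and do not say whether they share more. Deviations of same-numbered arrays correlated at -0.71 to 0.37, 1 value per pair, which cannot decide it. The cause of these changes was not tested. The signal of Zbtb7b near the filter limits what its values show.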
